A study of Homo sapiens with 2 samples.

Results

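Described here are 42 human genes of DNA repair, chosen by name from the routes of homologous recombination, Fanconi crosslink repair, mismatch and uracil repair, end joining and the damage checkpoint, out of 19775 genes with a probe set of their own on the array. The cells were MDA-MB-231, a long-established human cell line of triple-negative breast cancer, which is a tumour with neither oestrogen nor progesterone receptors nor an amplified ERBB2 gene. Of the 2 cultures, 1 was transfected with a control siRNA and 1 with siRNA against KMO for 48 h, and both were grown in the same serum-containing medium. KMO encodes kynurenine 3-monooxygenase, a mitochondrial enzyme of tryptophan breakdown. Total RNA of each culture was read on 1 Affymetrix U133 Plus 2.0 array, so there are no replicates, no test between conditions was possible, and each difference describes this pair of cultures. The array names in the labels carry shLUC and shK421, strings usual for short hairpin constructs, so whether siRNA or hairpins were used was not settled, and a single siRNA set or construct stands for the knockdown.

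A chromosome break is repaired in S and G2 phase by homologous recombination, in which the broken ends are cut back to single strands, coated with recombinase by BRCA1, PALB2 and BRCA2, and paired with the sister chromatid. The Fanconi proteins free crosslinked strands and hand the resulting break to the same machinery, whereas end joining seals breaks without a template at any stage of the cycle. ATM and ATR are the kinases that sense breaks and stalled forks and halt the cycle through CHEK2 and CHEK1, and mismatch repair removes errors left behind the replication fork. Many genes of recombination and of the ATR arm are read most in S phase, while those of end joining vary little over the cycle.

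Levels are values of robust multi-array averaging (RMA) on the log2 scale, and differences are siKMO minus control, so that a difference of 1 is 2-fold. A gene was represented by its probe set with the highest mean of both arrays and was called measured at a mean of 6 or more. Any probe set at that mean is called usable. Of the 42 genes, 37 had 80 probe sets assigned to them alone and 34 were measured. XRCC2, XRCC3 and FANCM lay under the minimum. BRCA2, RBBP8, FANCA, FANCD2 and PMS2 were not analysed here, PMS2 because both of its probe sets are also assigned to the related sequence PMS2CL. Of the 20 measured genes with a single probe set at the minimum or above, none has a second such reading of its transcript.

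The repair genes stood higher in the siKMO array almost throughout, by small steps. Of the 34 measured, 32 were higher and 2 lower, where 54.8% of all 8997 measured genes were higher and 44.1% lower. Their median difference was 0.43, a 1.35-fold higher level, beside 0.04 over all measured genes, and 89.2% of all measured genes had a difference under that median. At least 1.5-fold higher were 10 of the 34, against 5.19% of all measured genes, and 0 were at least 1.5-fold lower, against 5.41%. EXO1, the exonuclease that cuts back broken ends and mismatched strands, and BRIP1, the helicase bound to BRCA1, were at least 2-fold higher, against 0.856% of all genes, and 0 repair genes were at least 2-fold lower, against 1.39%. The other 8 genes past 1.5-fold were MSH6, UNG, BARD1, RAD54B, FANCI, BRCA1, RAD54L and CHEK1. The lowest difference among the 10 was that of CHEK1 at 0.60, and the next gene, MRE11, stood at 0.55, just inside and just outside the 1.5-fold line. The shares of all measured genes given here also stand beside the counts by role below.

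**Figure D1:**
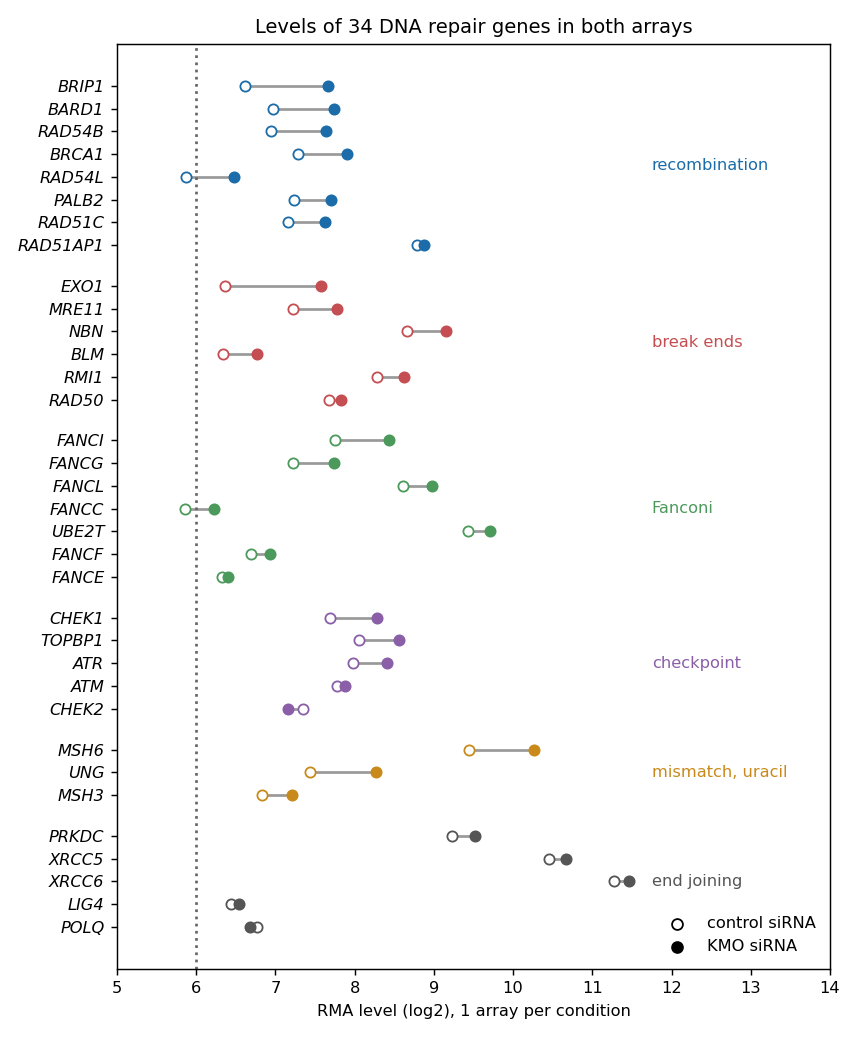
RMA levels (log2, horizontal axis) of the 34 measured repair genes, grouped by role and ordered by difference, with the control array as open and the siKMO array as filled circles and the minimum level of 6 dotted. The filled circle lies to the right in 32 genes and to the left in CHEK2 and POLQ; levels of different genes come from different probes and are not to be set against each other.

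Since the genes moved largely one way, their promoters were searched for shared letters. RefSeq windows of GRCh38.p14, from 250 bases before to 50 after a gene's start, were found for 37 of the 42 genes. The stretches shown are those of the 2 genes with the highest differences, of MSH6, whose 2 usable probe sets both passed 1.5-fold, and of CHEK2, the gene with the lowest difference. All 4 were thus picked with their values known. BARD1 and CHEK1, which also passed 1.5-fold with all usable probe sets, are not shown. Each is written 5′ to 3′ on the gene's strand. In the first pair of lines the capitals mark an E2F site, the element bound by the E2F factors of S-phase entry, and in the second pair they mark CCAAT boxes, read on the opposite strand as ATTGG.
EXO1, chr1:241848104-241848223, plus strand: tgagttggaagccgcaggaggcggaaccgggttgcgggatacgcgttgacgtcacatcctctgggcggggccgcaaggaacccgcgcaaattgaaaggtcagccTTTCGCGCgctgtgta
MSH6, chr2:47783045-47783164, plus strand: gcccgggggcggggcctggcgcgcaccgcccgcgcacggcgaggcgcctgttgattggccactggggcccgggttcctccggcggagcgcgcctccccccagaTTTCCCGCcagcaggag
BRIP1, chr17:61863539-61863658, minus strand: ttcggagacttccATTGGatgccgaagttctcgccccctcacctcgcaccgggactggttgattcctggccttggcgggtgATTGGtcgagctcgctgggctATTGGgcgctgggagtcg
CHEK2, chr22:28741801-28741920, minus strand: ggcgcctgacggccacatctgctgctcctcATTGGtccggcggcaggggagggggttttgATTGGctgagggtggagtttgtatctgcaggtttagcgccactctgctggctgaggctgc
The E2F site was searched as TTTCCCGC, TTTCGCGC, TTTGGCGC or TTTGCCGC on either strand. At least 1 window with it was found for 8 of the 29 measured repair genes with a window (27.6%) and for 7.12% of all 7554 measured genes with one. Counting unmeasured genes too, it was found for 12 of 37 repair genes (32.4%) and for 3.99% of all 27305 genes of the table. In EXO1 and MSH6 the site began at bases 5 and 4 of the transcript, counted from 1 at the start. With the 250 bases before the start alone, 4 of the 29 held it (13.8%), against 6.08% of all measured genes. CCAAT on either strand was found for 17 of the 29 (58.6%) and for 44.2% of all measured genes. The ETS letters CCGGAAGT were found for 5 of 29 (17.2%) and 11.2%, and the CHR letters TTTGAA or TTCGAA for 6 of 29 (20.7%) and 16.0%, in each case repair genes first and all measured genes second. The NRF1 motif, in its palindromic consensus form, was found for 0 of 29 and 3.12%. The median difference between arrays was much alike with and without the letters. The 8 measured repair genes with an E2F site had a median difference of 0.44 and the 21 with a window but no site had 0.43. The 8 ran from 0.20 to 1.21 and the 21 from -0.19 to 1.05. For CCAAT the medians were 0.44 with and 0.40 without it. RAD54B, FANCI, NBN, PRKDC and XRCC5 had no window, and whether a site bears on the difference was not tested. BRIP1 and CHEK2, at opposite ends of the order, both held CCAAT boxes and no E2F site. BARD1 and CHEK1, unlike MSH6, held no E2F site either. A match is a string of letters in a window and was not read as a bound site.

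The recombination genes were higher as a group. All 8 measured of 11 were higher, 5 of them by at least 1.5-fold, with a median of 0.62. BRCA1, the ubiquitin ligase that directs breaks into recombination, stood at 7.29 in control and 7.91 in siKMO, a 1.54-fold higher level. Its second probe set, under the minimum, stood at 5.58 and 5.84, a difference of 0.25. BARD1, its obligate partner, stood at 6.97 and 7.74, a 1.71-fold higher level, and at 6.42 and 7.37 with its other usable probe set. BRIP1, whose promoter stretch is given above, stood at 6.61 and 7.66 (2.07-fold), rank 61 from the top of all 8997 genes. Its second probe set, just under the minimum, stood at 5.49 and 6.44, a difference of 0.96 and so short of 2-fold. PALB2, the bridge from BRCA1 to BRCA2, stood at 7.23 and 7.70 (1.38-fold). These partners of BRCA1 thus shared a direction, with the siKMO array the higher in each, and differed in size from 0.47 to 1.05.

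The genes that act on the recombinase filament were less even. RAD54B, a translocase that remodels the paired strands, stood at 6.94 in control and 7.63 in siKMO, 1.62-fold higher. Its relative RAD54L stood at 5.87 and 6.48. The control level of RAD54L was under 6, and with 6 in its place the gene was at least 1.40-fold higher. This leaves 9 in place of 10 of the 34 repair genes past 1.5-fold, against 4.91% of all measured genes with levels under 6 taken as 6. RAD51C, a paralog of the recombinase, stood at 7.16 and 7.62 with one probe set, a difference of 0.46, and differed by 0.01 with the other (6.87 and 6.88), so its size was not settled. RAD51AP1, which helps the recombinase to pair strands, differed by 0.08 (8.79 and 8.87). XRCC2, under the minimum, stood at 5.19 and 5.37, and XRCC3 at 3.73 and 4.11, both of them further paralogs of the recombinase.

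Genes that process broken ends and unwind the joints were all higher as well. The 6 measured of 7 had a median of 0.46, and 1 passed 1.5-fold. EXO1 stood at 6.37 in control and 7.58 in siKMO, a 2.31-fold higher level and rank 31 of all genes, the highest of the repair genes. BLM, the helicase that dissolves crossed strands and helps resection, stood at 6.33 and 6.77 (1.35-fold), and its partner RMI1 at 8.28 and 8.63 (1.28-fold). In the complex that binds break ends first, the nuclease MRE11 stood at 7.23 and 7.77, a difference of 0.55. NBN, the subunit that recruits ATM, stood at 8.67 and 9.16, a difference of 0.49, and its other usable probe sets, at 7.15 and 7.73, 6.90 and 7.87, and 5.74 and 6.41, brought the range to 0.49 to 0.97. RAD50, the ATPase that tethers the ends, stood at 7.68 and 7.82, a difference of 0.15, and at 0.51 with its other usable probe set. All usable probe sets of the 3 subunits were higher in the siKMO array.

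In the Fanconi route, 7 of the 10 genes were measured and all 7 were higher, 1 of them by at least 1.5-fold, with a median of 0.36. FANCI, which with FANCD2 forms the clamp that is ubiquitinated at a crosslink, stood at 7.75 in control and 8.43 in siKMO (1.60-fold), and its 3 usable probe sets ran from 0.52 to 0.68, the others standing at 6.95 and 7.54 and at 6.43 and 6.95. UBE2T, the conjugating enzyme of that step, stood at 9.44 and 9.70 (1.20-fold), and FANCL, the ligase, at 8.61 and 8.98 (1.29-fold). Of the other subunits of the core complex, FANCG stood at 7.22 and 7.74 (1.44-fold) and FANCF at 6.69 and 6.94 (1.18-fold). FANCE stood at 6.33 and 6.40, a difference of 0.08. FANCC stood at 5.86 and 6.22, higher by at least 0.22 with its control level taken as 6. FANCM, the translocase that brings the core complex to DNA, was under the minimum with all 4 probe sets, the strongest at 4.93 and 5.50. The 5 measured core subunits of the set were thus higher by less than 1.5-fold each. FANCI downstream of them was past 1.5-fold with its strongest probe set, but not with all 3.

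Of the checkpoint kinases, ATR and CHEK1 were higher, and ATM and CHEK2 differed little (0.09 and -0.19). ATR, the kinase of stalled forks, stood at 7.98 in control and 8.40 in siKMO (1.34-fold), with differences of 0.37 and 0.43 over its 2 usable probe sets. TOPBP1, its activator, stood at 8.06 and 8.56 (1.41-fold). CHEK1, its effector kinase, stood at 7.69 and 8.29 (1.52-fold), and 3 usable probe sets ran from 0.60 to 0.85, the others standing at 7.47 and 8.09 and at 6.71 and 7.57. In the other arm, ATM, the kinase of double-strand breaks, stood at 7.78 and 7.87, with differences of 0.04 and 0.09 over 2 usable probe sets. CHEK2, its effector kinase, stood at 7.35 and 7.16, a difference of -0.19 on a single probe set and the lowest of all repair genes. Other genes that act with ATR did not all share its direction: ETAA1, a second activator, stood at 7.04 and 6.52, a difference of -0.52. RAD17, which loads the checkpoint clamp, stood at 8.99 and 8.79. Its 3 usable probe sets ran from -0.20 to 0.02, so its direction was not settled. Both ETAA1 and RAD17 were chosen after the values were seen. Of the 20 measured checkpoint genes outside the set, which include these, 17 were higher and 3 lower, against 54.8% and 44.1% of all measured genes. Whether ATR and ATM differ beyond the spread between cultures was not tested, since each condition had 1 array.

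Of the mismatch and uracil repair genes, 3 of 4 were measured, all 3 higher and 2 of them by at least 1.5-fold, with a median of 0.82. MSH6, which recognises single-base mismatches, stood at 9.44 in control and 10.26 in siKMO, a 1.77-fold higher level and rank 159 of all genes, and at 8.11 and 9.04 with its other usable probe set. MSH3, which recognises longer loops, stood at 6.83 and 7.21, a difference of 0.38, and at 0.12 with its other usable probe set. UNG, the glycosylase that removes uracil from DNA, stood at 7.44 and 8.26 (1.77-fold), rank 160. MSH6 was higher than MSH3 in its difference with every usable probe set of each.

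End joining genes had the lowest median of the 6 roles in the set. Of the 5 measured, 4 were higher, and the median was 0.20. XRCC5 and XRCC6 encode the Ku ring that holds the ends. XRCC5 stood at 10.45 in control and 10.67 in siKMO (1.17-fold), and XRCC6 at 11.27 and 11.46 (1.15-fold). PRKDC, the kinase that Ku recruits, stood at 9.23 and 9.52 (1.23-fold), and LIG4, the ligase of the route, at 6.44 and 6.55 (1.07-fold). POLQ, the polymerase of a separate route that joins ends at short shared sequences, stood at 6.77 and 6.68, a difference of -0.09; its second probe set, under the minimum, stood at 5.03 and 5.55, so its direction was not settled. The highest difference in this group, 0.29 for PRKDC, was under the lowest of the BRCA1 partners, 0.47 for PALB2. Those partners were grouped after the values were seen. Over all measured recombination genes the 2 roles overlapped, with RAD51AP1 at 0.08.

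Probe sets of one gene read the same RNA and are not replicates of a culture, but they show how far the reading of a transcript varies. Of the repair genes, 14 had 2 or more usable probe sets, and in all 14 every one was higher in the siKMO array, against 41.3% of the 3777 such genes overall. In 3 of the 14 all were higher by at least 1.5-fold, against 2.54% overall: MSH6 (0.82 and 0.93), BARD1 (0.77 and 0.95) and CHEK1. The differences of a gene's probe sets spanned a median of 0.14 in the 14 genes and 0.15 in all such genes, and most in NBN (0.48) and RAD51C (0.45). With no minimum level, 21 genes had 2 or more probe sets and 11 of them were higher with all. With a minimum of 5, 17 genes had 2 or more and 15 were higher with all. After centring on the median of all measured genes, 12 of the 14 were higher with all.

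**Figure D2:**
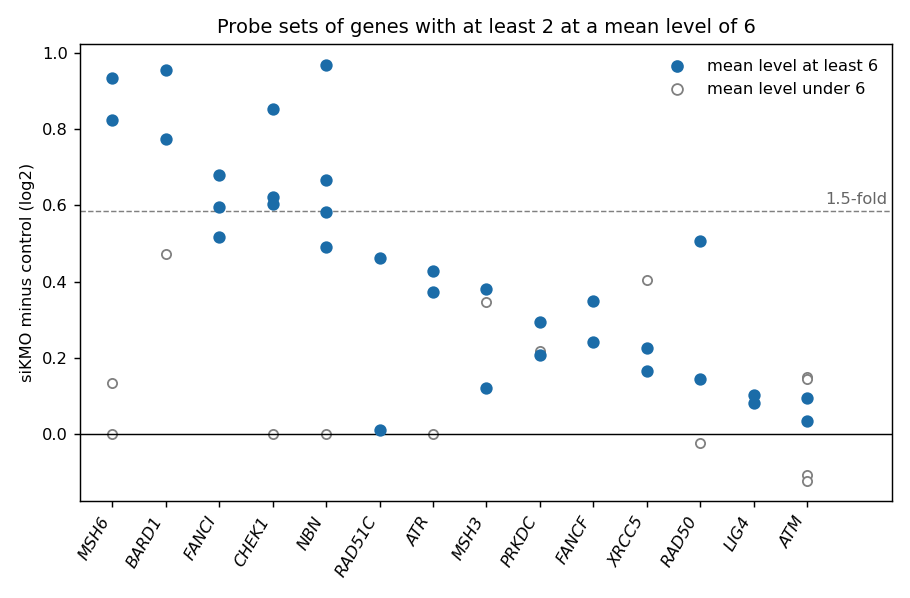
Differences between arrays (siKMO minus control, log2, vertical axis) of the probe sets of the 14 repair genes with at least 2 usable ones, filled where the mean level was at least 6 and open where it was under 6, with the 1.5-fold line dashed. All filled points lie above 0, those of MSH6, BARD1 and CHEK1 above the dashed line, and the lower point of RAD51C stands at 0.01.

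The level of a probe set can limit its difference, so the repair genes were also set beside all genes of like level. At mean levels from 6 to 7 the 8 repair genes had a median difference of 0.30 and all 2107 genes 0.02. From 7 to 8 the medians were 0.53 for 14 repair genes and 0.05 for all, from 8 to 9 they were 0.43 for 7 and 0.06, and from 9 up 0.27 for 5 and 0.03. The repair genes were thus above the other genes at each level, with the highest median between 7 and 8.

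Further repair genes were read from a list of 136 not in the set above, of which 122 had a probe set and 100 were measured. They were higher too, by less: 79 were higher and 20 lower, against 54.8% and 44.1% of all measured genes, with a median of 0.20. By at least 1.5-fold, 12 were higher and 1 lower, against 5.19% and 5.41% of all measured genes. Among genes of the checkpoint, 5 of 20 were at least 1.5-fold higher, against the same 5.19%. TIPIN and TIMELESS, which couple a stalled fork to ATR, stood at 6.96 and 7.98 (2.03-fold) and at 6.77 and 7.45 (1.61-fold) in the control and siKMO arrays. H2AX, the histone phosphorylated around breaks, stood at 8.48 and 9.37 (1.86-fold), and CLSPN, the adaptor between ATR and CHEK1, was at least 1.65-fold higher (5.85 and 6.72). RIF1, which holds back resection, stood at 7.59 and 8.48, with differences from 0.10 to 0.89 over 5 probe sets, so its size was not settled.

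Of the other listed genes past 1.5-fold, RFWD3, a ubiquitin ligase of the Fanconi route, was at least 1.71-fold higher (5.69 and 6.77), and GEN1, a nuclease that cuts crossed strands, at least 1.91-fold (5.93 and 6.94). RAD18, the ligase that opens lesion bypass, stood at 6.29 and 7.28 (1.98-fold), and FIGNL1, which acts on the recombinase, at 7.86 and 8.72 (1.82-fold). RECQL, a helicase, stood at 8.40 and 9.06 (1.59-fold). The nuclease APEX2 stood at 7.28 and 8.07, with differences of 0.26 and 0.79 over 2 probe sets. MLH3, a gene of mismatch repair, was the one gene at least 1.5-fold lower, at 6.93 and 6.29. Nucleotide excision repair, which removes bulky lesions, had a median of 0.11 over 16 genes, and the 11 lesion bypass genes had a median of 0.06. Listed genes of break end processing had a median of 0.34 (14 genes), of recombination 0.325 (5) and of mismatch and uracil repair 0.30 (19). Those of the checkpoint had 0.245 (20) and of the Fanconi route 0.24 (8). The medians of recombination and of mismatch and uracil genes in the set, 0.62 and 0.82, were thus not reached in the list. That 0.82 was the value of UNG, a uracil gene. The mismatch genes MSH6 and MSH3 of the set stood at 0.82 and 0.38, and PMS1 and MLH3 of the list at 0.55 and -0.64. Most of the listed 19 act on damaged bases or strand breaks. End joining had medians of 0.20 over the 5 genes of the set and 0.21 over the 7 of the list. Of these excision and end joining genes 0 were at least 1.5-fold higher, which in so few genes is near the 5.19% of all measured genes.

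**Figure D3:**
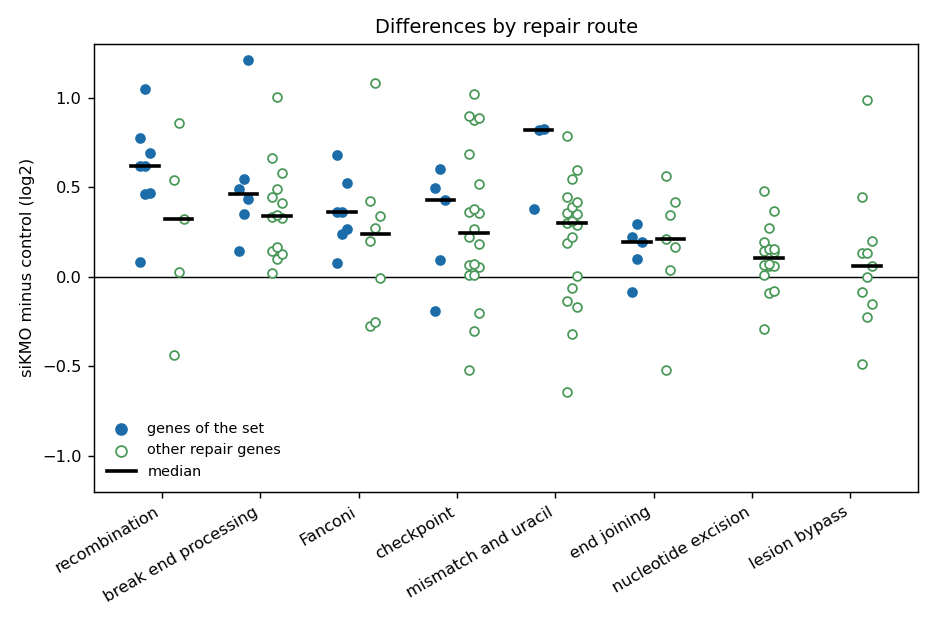
Differences between arrays (siKMO minus control, log2, vertical axis) of each measured gene by repair route, with the 34 genes of the set filled, the 100 other repair genes open and black bars for medians. In the set, recombination and the joint role of mismatch and uracil repair have the highest medians, 0.62 and 0.82. Nucleotide excision and lesion bypass have the lowest, 0.11 and 0.06. The other repair genes of recombination and of mismatch and uracil repair have medians of 0.325 and 0.30.

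Genes of DNA replication stood higher by more, and those of mitosis by less. Of 43 measured genes of replication licensing and the fork, 26 were at least 1.5-fold higher, with a median of 0.72, among them the helicase subunits MCM5 at 1.42, MCM4 at 1.35 and GINS3, higher by at least 0.93 with its control level of 5.45 taken as 6. Of 29 measured genes of G2 and mitosis, 1 was at least 1.5-fold higher, with a median of 0.15. Both counts stand beside 5.19% of all measured genes, and the mitosis count is near that share. The repair genes at 0.43 lay between them, near the 18 measured regulators of G1 and S phase at 0.49, of which CCNE2 (1.73) and CDC25A (1.56) were the highest and CDKN1A, an inhibitor of cyclin-dependent kinases, the lowest (-0.73). Replication genes moved in the same direction as the repair genes, and whether the share of cells in S phase differed between the cultures was not tested.

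**Figure D4:**
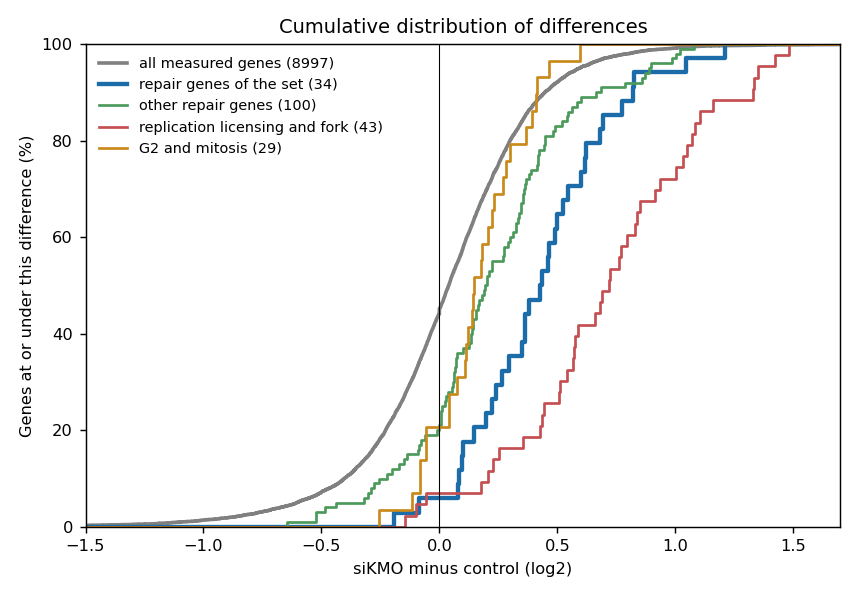
Cumulative share of genes (percent, vertical axis) against the difference between arrays (siKMO minus control, log2, horizontal axis) for all 8997 measured genes, the 34 repair genes, 100 other repair genes, 43 replication genes and 29 genes of G2 and mitosis. At the halfway height the curves stand at 0.04, 0.43, 0.20, 0.72 and 0.15 in that order.

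The arrays and cells themselves were checked. KMO lay at background in both arrays (2.11 to 2.95 in control and 2.35 to 2.92 in siKMO over 3 probe sets), so its values do not check the knockdown. The 3′ probe set of ACTB exceeded the 5′ one by 0.39 in control and 0.33 in siKMO, and for GAPDH the values were -0.11 and -0.10. Of 7 mesenchymal markers of such lines 6 were measured, 2 of them higher and 4 lower in siKMO, with a median of -0.10. VIM stood at 12.90 in control and 12.96 in siKMO, and differed by 0.64 with its other usable probe set. SPARC lay under the minimum at 3.96 and 2.82. Of the receptors, ESR1 stood at 4.74 and 4.84, PGR at 2.58 and 2.39 and ERBB2 at 7.44 and 7.37. Luminal epithelial markers, which this mesenchymal line is known to lack in part, were mostly present in control and mostly lower in the siKMO array. Of 21 with a probe set, 17 were measured, 14 of these were lower and 9 by at least 2-fold, with a median of -1.01. CDH1, which encodes E-cadherin, stood at 10.54 and 8.62, AGR2 at 8.63 and 6.96, and SPINT1 at 7.64 and 6.15. KRT8, KRT18 and GATA3 were higher, by 0.17, 0.15 and 0.34. The identity and purity of the cultures were not tested. Summed on the linear scale the 21 markers gave 14567 in control and 10262 in siKMO, and ESRP1, GRHL2, RAB25 and FOXA1 lay under the minimum. Their part in the differences of the repair genes was not tested.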

How the data were processed

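The authors deposited RMA values on a log2 scale, per the labels. Affymetrix Expression Console is the tool in the submitters' processing notes; its version, and which arrays were normalized jointly, is not given in the sources used here. RMA corrects background, equalises the distributions of the arrays and summarises probes, so it gives no detection call, compresses weak genes and would hide a shift shared by all transcripts. Of 54675 probe sets, 41091 carried 1 gene in the platform annotation, 1801 carried several and named none, and 11783 array controls or unlisted ones were unnamed. Symbols were updated by gene identifier to RefSeq (GRCh38.p14). Arrays have no counts, and their number limits the precision.

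With 1 array per group, only levels, differences, counts at 1.5-fold and 2-fold and medians were computed (Python 3.11.15, pandas 2.3.3), beside the same over all 8997 measured genes. Levels under 6 were taken as 6 where a lower bound is given. The members and lists were chosen with earlier results of these data known. Smaller groups of proteins that act together, such as the BRCA1 partners, were formed after the values were seen. All members could be named, and of the other repair genes the 12 largest past 1.5-fold; of comparison and marker lists up to 3 each, and other names there were chosen after their values were seen. Other probe set rules, minimum levels and centring were tried. The calculation was tested on simulated data.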

Additional observations from a re-analysis of the deposited data

How the results depend on the processing

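Of 112 values under alternatives, 104 moved by no more than 0.1 (medians) or 1.5 times (counts), and 0 medians changed sign. With a minimum level of 7, EXO1 dropped out and 1 of 26 repair genes was at least 2-fold higher, against 0.74% of all genes then measured. The other repair genes had 7 at least 1.5-fold higher, against 4.76% of all genes then measured, and 0 lower. At that minimum, 7 repair genes had 2 or more usable probe sets, all 7 on one side. With _x_at and _s_at probe sets left out, 4 repair genes had 2 or more and all 4 were on one side, and 0 other repair genes were at least 1.5-fold lower. With the mean of all probe sets, 5 other repair genes were at least 1.5-fold higher, against 4.56% of all genes measured under that rule. How many of the other repair genes were measured under it is not given here, so their share was not set beside that value. The repair genes at least 1.5-fold higher numbered 7 of 28 with that mean, against the same 4.56%. After centring on the median of all genes, whose shift was 0.04, they numbered 7 of 34, against 4.39%. Under the main rule they numbered 10 of 34, against 5.19%. With the 250 bases before the start alone, 6 repair genes, measured or not, held an E2F site in place of 12. No paired analysis was possible because each condition had 1 array. No array could be left out for the same reason, and no outlier could be sought.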
